A study of Mus musculus with 8 samples.

Results

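Wide open regions at gene ends were taken from the ATAC-seq peak list of mouse embryonic stem cells as peaks of 300 bp or more, on chromosomes 1 to 19, whose centre lay within 1 kb of an outer end of exactly 1 protein-coding RefSeq gene. There were 1409 of them, among 14088 peaks at single gene ends and 75462 peaks on these chromosomes. The remaining 12679 peaks at single gene ends, all under 300 bp, served as the comparison. Members were selected on their width and position, so their widths are given as a description without a test. The 1409 regions belonged to 1394 genes.

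The cells were the line RHKI, a derivative of the E14Tg2a embryonic stem cell line whose genotype is an HA-Rnaseh1 knock-in. All 8 samples shared this genotype and were grown in 2i/LIF medium with serum. There were 4 control samples and 4 Dox samples, the latter kept with doxycycline at 500 ng/ml over 48 h. Neither the clonal origin of RHKI nor the origin of replicates from separate cultures is stated in the labels. The list holds 1 set of positions for the whole series and no value per sample, so Dox and control could not be compared, the read depth is unknown, and no value below has a replicate error. Regions are not replicates of a condition. Shares of regions or genes therefore carry exact 95% binomial (Clopper-Pearson) intervals, which cover counting error only, and no p-values. As a check of the labelled cell type, single-end peaks were found at 24 of 30 genes of the naive state, 7 of 20 markers of differentiated tissues and 10291 of all 20665 protein-coding genes. They were also found at 15 of 18 neuronal and 12 of 17 germline genes, so a peak at a gene end does not tell these cell types apart.

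In ATAC-seq, Tn5 transposase cuts DNA that is not wrapped in nucleosomes or otherwise covered. At an active gene start a nucleosome-free stretch holds the transcription machinery, and a well-placed nucleosome usually follows it just inside the gene. Many starts of widely used genes in embryonic stem cells lie in CpG islands, GC-rich stretches that are largely free of DNA methylation. How wide a called peak is depends on the length of cleared DNA and also on how the peak caller joins neighbouring stretches of signal.

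The promoter letters of 5 of the widest members are shown because they place the open region against the annotated start. Each run is read 5′ to 3′ on the gene's strand from the RefSeq promoter table (GRCm38.p6) and holds 250 bases before the listed start and 30 bases from the start on. Capitals mark the bases that lie inside the peak. The runs lie at chr6:149101651-149101930 (minus strand) for Dennd5b, at chr14:26669817-26670096 (minus) for Pde12, at chr4:41275106-41275385 (minus) for Ubap2, at chr16:37868150-37868429 (plus) for Lrrc58 and at chr11:102925095-102925374 (minus) for Kif18b.
Dennd5b: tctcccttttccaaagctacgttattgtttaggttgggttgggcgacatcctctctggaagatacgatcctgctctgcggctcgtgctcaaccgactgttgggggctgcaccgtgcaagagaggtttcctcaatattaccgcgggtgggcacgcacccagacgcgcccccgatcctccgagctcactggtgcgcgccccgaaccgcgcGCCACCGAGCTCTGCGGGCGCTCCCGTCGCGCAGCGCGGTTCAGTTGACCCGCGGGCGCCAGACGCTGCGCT
Pde12: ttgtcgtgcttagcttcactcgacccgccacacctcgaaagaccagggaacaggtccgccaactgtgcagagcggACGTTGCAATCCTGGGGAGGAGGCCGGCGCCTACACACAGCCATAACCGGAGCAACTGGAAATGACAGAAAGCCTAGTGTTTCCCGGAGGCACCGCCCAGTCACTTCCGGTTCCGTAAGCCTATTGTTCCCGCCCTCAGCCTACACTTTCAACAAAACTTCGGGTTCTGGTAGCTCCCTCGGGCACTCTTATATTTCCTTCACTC
Ubap2: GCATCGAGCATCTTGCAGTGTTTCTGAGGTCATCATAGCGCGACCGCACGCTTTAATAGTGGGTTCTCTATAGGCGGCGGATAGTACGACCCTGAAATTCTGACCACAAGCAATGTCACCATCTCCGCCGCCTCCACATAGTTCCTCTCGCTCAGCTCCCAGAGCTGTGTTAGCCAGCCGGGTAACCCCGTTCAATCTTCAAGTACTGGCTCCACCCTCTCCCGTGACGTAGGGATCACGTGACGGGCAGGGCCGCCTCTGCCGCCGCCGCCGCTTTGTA
Lrrc58: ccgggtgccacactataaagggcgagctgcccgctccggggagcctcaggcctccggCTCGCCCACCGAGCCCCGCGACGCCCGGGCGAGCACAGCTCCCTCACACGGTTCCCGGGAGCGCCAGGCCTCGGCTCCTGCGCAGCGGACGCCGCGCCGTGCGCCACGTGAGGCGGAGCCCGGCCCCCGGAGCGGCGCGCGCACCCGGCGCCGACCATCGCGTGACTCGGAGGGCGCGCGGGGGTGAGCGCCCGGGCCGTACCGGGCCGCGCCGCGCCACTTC
Kif18b: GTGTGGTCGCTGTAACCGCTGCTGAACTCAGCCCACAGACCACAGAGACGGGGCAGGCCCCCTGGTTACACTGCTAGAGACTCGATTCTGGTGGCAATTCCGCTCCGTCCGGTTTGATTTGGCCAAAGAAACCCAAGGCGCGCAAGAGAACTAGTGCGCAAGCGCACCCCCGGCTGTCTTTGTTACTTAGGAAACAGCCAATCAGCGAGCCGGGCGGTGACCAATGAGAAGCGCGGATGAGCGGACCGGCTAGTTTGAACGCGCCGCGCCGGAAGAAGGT

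In Dennd5b only the last 72 of these 280 bases were in the peak, which ran on into the gene, its centre 568 bp from the listed start. In Pde12 205 bases and in Lrrc58 223 bases were covered, again with the open region reaching into the gene. In Ubap2 and Kif18b all 280 bases were covered. The Ubap2 centre lay at -138 bp and the Kif18b centre at -71 bp from the listed start, where a negative position is upstream. A listed start need not be the outer end of the gene, from which all other positions here are measured. From the outer end the Ubap2 centre lay 743 bp inside the gene and the Kif18b centre at -61 bp. GC content of the runs ran from 56.4% in Pde12 to 79.6% in Lrrc58, with 17 to 48 CpG dinucleotides. The Kif18b run held a GC box, a CCAAT box and an ETS motif, and the Pde12 run a GC box and an ETS motif. An E-box was found in the Ubap2 run, and a TATA box match and an E-box in the Lrrc58 run. The TATA box match of Lrrc58 lay outside the peak, near the upstream end of its run. None of the 15 motifs searched was found in the Dennd5b run.

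Widths at single gene ends formed separate groups, and 300 bp fell in the sparse stretch between the narrowest group and the next. The most frequent bin of 20 bp was 110 to 129 bp with 3917 peaks. Counts then fell to 13 peaks at 290 to 309 bp and 15 at 310 to 329 bp, and rose again to 219 peaks at 410 to 429 bp. They fell once more to 5 peaks at 570 to 589 bp, and 98 peaks were 600 bp or wider. Members had a median of 428 bp (quartiles 395 and 469 bp, range 300 to 1221 bp) and narrower peaks a median of 130 bp (quartiles 115 and 154 bp). Of the members, 527 (37.4%) were 400 to under 450 bp wide and only 68 (4.83%) were 300 to under 350 bp wide. The same shape held for peaks at no protein-coding gene end, where wide peaks had a median of 419 bp. Members made up 10.0% of peaks at single gene ends (9.51 to 10.5%). The share of 300 bp or more was 11.9% at ends of 2 or more genes (10.6 to 13.3%) and 3.26% at no protein-coding gene end (3.11 to 3.40%). These shares restate the width rule and are not a test.

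**Figure D1:**
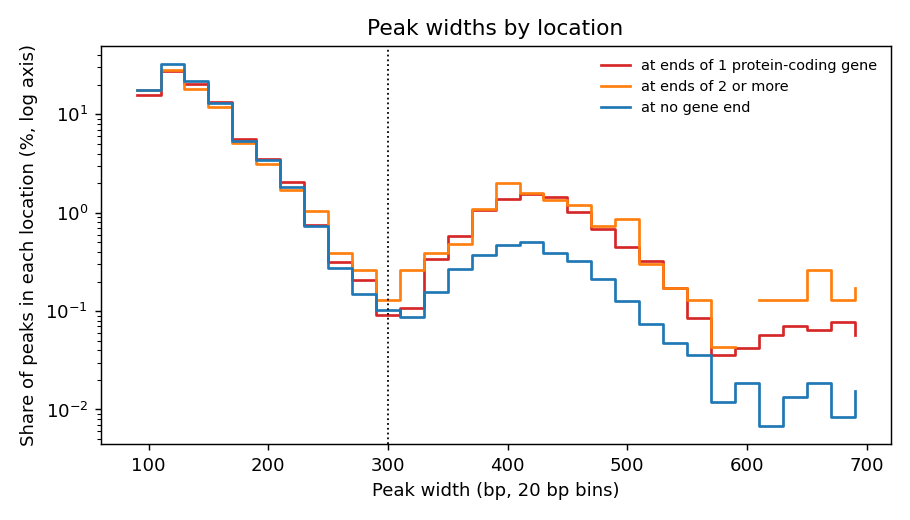
Share of peaks by width in 20 bp bins, on a log axis, for peaks at ends of 1 protein-coding gene, of 2 or more, and at no gene end; the dotted line marks 300 bp, bins without a peak are left blank and peaks over about 700 bp are not drawn. All 3 curves dip near 300 bp and rise again around 420 bp, and the second rise is lowest at no gene end.

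The 10 widest members lay at genes of varied function. The widest was at Dennd5b (1221 bp, chromosome 6), which encodes an exchange factor for Rab GTPases. Rest, a repressor of neuronal genes, followed with 1037 bp, and Adgrl2, an adhesion receptor, with 984 bp. The next were Pde12, a mitochondrial RNA-degrading enzyme, with 954 bp, Ubap2 with 945 bp, Lrrc58 with 867 bp and Kif18b, a mitotic kinesin, with 865 bp. Trrap, a scaffold of histone acetyltransferase complexes including the one that exchanges H2A.Z, had 859 bp. Stxbp5l had 850 bp and the polycomb gene Phc3 799 bp. Of these 10 regions, 8 had their centre inside the gene, and those of Adgrl2 (-858.5 bp) and Kif18b (-61 bp) lay outside it.

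Just inside the threshold were peaks at Zfp462 (300 bp), Faf2, Ppp1r3b (305 bp), P4hb (307 bp) and Bysl (308 bp). Just outside it were peaks at Ergic2, Fbxo30 and Tmed8 (297 bp each for the last pair), and Lmbrd2 and Diaph1 (296 bp each).

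Wide regions lay at the start of the gene rather than its far end. The promoter table lists a strand for 1121 members, and 1069 of these (95.4%, 94.0 to 96.5%) were nearer to the start, against 8682 of 10044 narrower peaks (86.4%, 85.8 to 87.1%). The intervals do not overlap. The share was 85.1% under 150 bp, 89.0% at 150 to under 200 bp, 92.6% at 200 to under 300 bp, 94.8% both at 300 to under 400 bp and at 400 to under 500 bp, and 98.4% at 500 bp or more. Between lower and upper chromosome coordinates members were evenly split, with 51.5% at the lower end.

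Around the start, wide regions were set into the gene. Their centre had a median position of 127 bp inside the start (quartiles -52.5 and 241.5 bp, 1069 members), where narrower peaks had 6 bp (quartiles -75.5 and 310 bp). The centre fell 50 to 250 bp inside the start in 463 members (43.3%, 40.3 to 46.3%) and in 12.2% of narrower peaks (11.5 to 12.9%). The fullest 50 bp bin for members was 100 to 150 bp inside, with 17.8% of them, and that for narrower peaks was -50 to 0 bp, with 17.1%. The first 50 bp inside the gene held only 3.18% of member centres. A second, smaller group of 170 members (15.9%, 13.8 to 18.2%) had centres between -300 and -100 bp. Narrower peaks held 11% in that stretch (10.3 to 11.7%). Narrower peaks had a dip of their own at 150 to 200 bp inside (2.07%) and a low rise at 300 to 350 bp (2.94%).

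**Figure D2:**
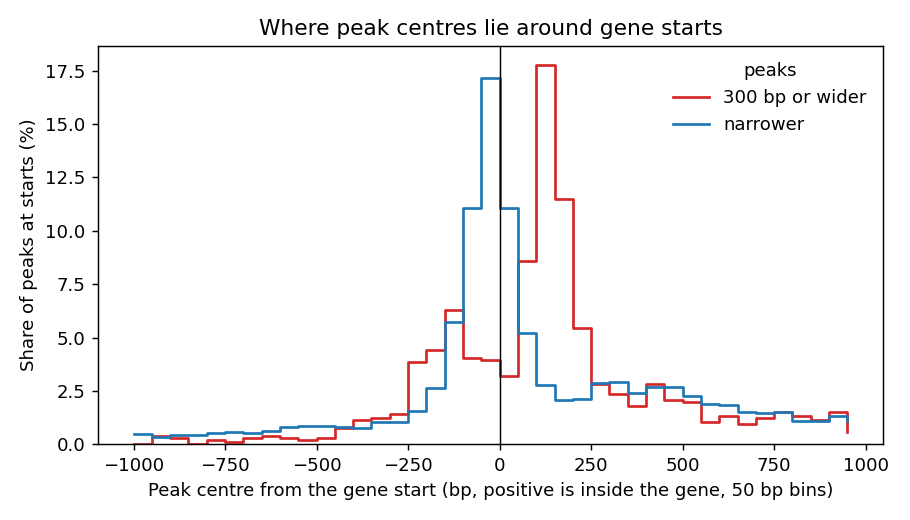
Share of peak centres in 50 bp bins around the gene start, positive positions being inside the gene, for 1069 wide and 8682 narrower peaks at starts. Narrower centres are densest just outside the start, while wide centres are densest at 100 to 150 bp inside it, with a smaller group near -150 bp.

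By their medians, wide and narrower peaks differed less in the outer edge than in the inner edge. At starts the outer edge had a median of -90 bp for members and -60 bp for narrower peaks, while the inner edge lay at 339 and 76 bp. Single peaks varied widely, with outer-edge quartiles of -275 and 1 bp for members and of -146.75 and 241.75 bp for narrower peaks. Inner-edge quartiles were 158 and 480 bp for members and -5 and 379 bp for narrower peaks. At the upper quartile the outer edge thus differed more than the inner edge. By class, the inner edge moved from 64 bp (under 150 bp wide) to 137 bp (200 to under 300 bp), 311 bp (300 to under 400 bp), 342.5 bp (400 to under 500 bp) and 460.5 bp (500 bp or more). Over the same classes the outer edge was -57, -87, -73, -91.5 and -118.5 bp. The base of the gene end itself was covered by 65.8% of members at starts and by 35.4% of narrower peaks. A wider peak covers a given base more readily, so this share partly restates the rule.

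Pairs of neighbouring narrower peaks were set beside the wide regions by position. The smallest gap between neighbouring peaks on these chromosomes was 201 bp and 0 gaps were of 200 bp or less, while 1390 gaps were of 201 to 250 bp. At starts, 344 pairs of neighbouring narrower peaks of the same gene had a gap of 201 to 250 bp. From the outer edge of one to the inner edge of the other they spanned a median of 487 bp (quartiles 462 and 520 bp), from -126 to 361.5 bp. The middle of the span lay at a median of 119.25 bp inside the start, and at 50 to 250 bp inside in 167 pairs (48.5%, 43.2 to 54.0%). Members had 127 bp and 43.3% by the same measures. With gaps of up to 300 and 400 bp the median span was 511 and 567 bp, and its middle lay at 128.5 and 152.75 bp. The gap that was set therefore largely fixes the length of the span, and a likeness in length carries no weight. Whether wide peaks arose by joining neighbours closer than 201 bp was not tested, since the list holds no signal within a peak. The measure was chosen after the positions were seen.

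**Figure D3:**
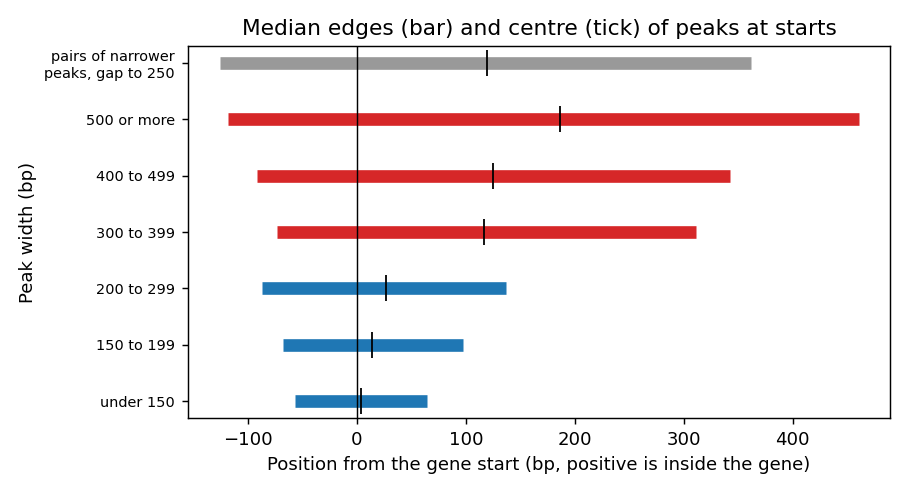
Median outer and inner edge (bar) and median centre (tick) of peaks at gene starts by width class, with pairs of neighbouring narrower peaks at a gap of 201 to 250 bp for comparison; positive positions are inside the gene. The inner edge moves from 64 to 460.5 bp across the classes, while the outer edge stays between -57 and -118.5 bp.

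Wide regions more often stood alone within 1 kb. Another peak centre lay within 1 kb of 371 members (26.3%, 24 to 28.7%) and of 42.0% of narrower peaks (41.1 to 42.9%). The share fell from 43% under 150 bp to 38.3% at 200 to under 300 bp, 32.6% at 300 to under 400 bp and 22.7% at 500 bp or more. Peaks lie at least 201 bp apart, so a wide peak leaves less of the 1 kb free for another. Among members with a centre 50 to 250 bp inside the start, 15.3% had another peak within 1 kb (12.2 to 18.9%), and among narrower peaks in that stretch 33.7% (30.9 to 36.7%). Within 50 kb members had a median of 6 other peaks (quartiles 3 and 10) and narrower peaks 7 (quartiles 4 and 11). Slc29a1, a nucleoside transporter gene, had 25 other peaks within 50 kb, and Ppm1n and Tnpo2 23 each. At 63 members (4.47%, 3.45 to 5.68%) there was none, among them Rb1cc1, an autophagy gene with a 769 bp peak, Prex2 and Crispld1. Narrower peaks had none in 2.93% of cases (2.64 to 3.23%). The number of protein-coding gene ends within 50 kb had the same median, 4, in members and narrower peaks.

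**Figure D4:**
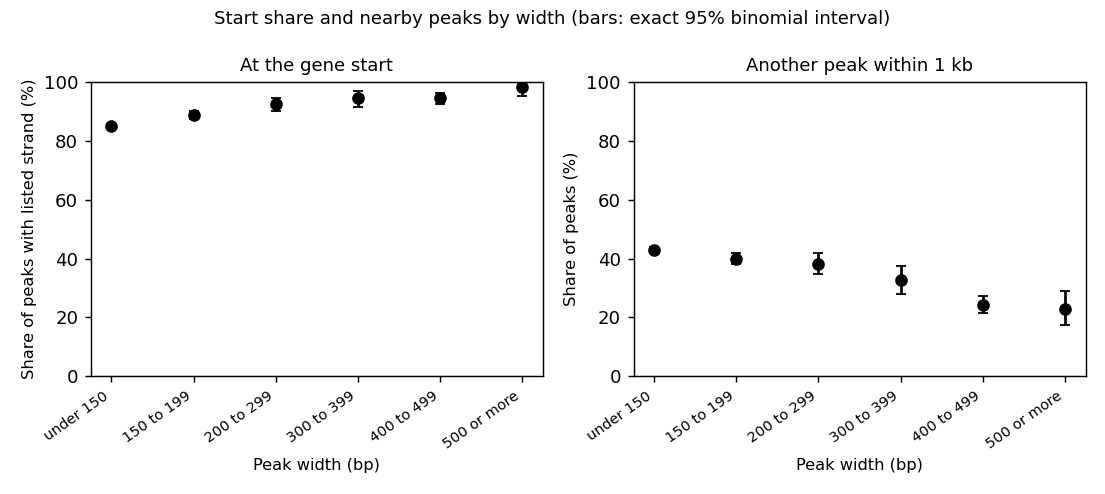
Share of peaks at the gene start (left, of peaks with a listed strand) and with another peak centre within 1 kb (right) by width class; points are shares of peaks at single gene ends and bars exact 95% binomial intervals. The start share climbs from 85.1 to 98.4% and the share with a neighbour falls from 43 to 22.7%.

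An end of an annotated lncRNA gene, often a transcript running away from the same promoter, lay within 1 kb of 212 members (15.0%, 13.2 to 17%) and of 12.1% of narrower peaks (11.5 to 12.6%). In members centred between -300 and -100 bp the share was 20% (14.3 to 26.8%), and in those centred 50 to 250 bp inside the start it was 14.3% (11.2 to 17.8%). These intervals overlap.

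Only 52 members with a listed strand were nearer to the far end of their gene. Among the widest were peaks at the zinc finger gene Zfp53 (533 bp), at Spata31d1d (532 bp) and at Hhipl1 (527 bp), named after their values were seen. A listed start of any gene lay within 1 kb of 3 of the 52 (5.77%, 1.21 to 15.9%) and of 4.04% of narrower peaks at far ends. The gene's own start was not left out of these counts. Among the 3 were the very short genes H4f16 (439 bp long) and H2bc3 (490 bp long), whose ends lie close together. Peaks within 1 kb of an outer end of another protein-coding gene were left out by the rule. Outer starts of other such genes were therefore excluded in advance from both shares. Member centres spread widely at far ends, with quartiles of -713 and 661 bp. The 3 members farthest from their gene end were at Cdh24 (999.5 bp inside its far end), St8sia6 (984.5 bp inside its start) and Tmed5 (-983 bp from its far end).

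Genes with a wide region were somewhat longer. Their median length was 28.7 kb (quartiles 12.4 and 75 kb, 1394 genes), against 24.2 kb for 8897 genes with narrower peaks only and 17.5 kb for all 20665 protein-coding genes on these chromosomes. Of genes with a peak at a single gene end, 13.5% had a wide one (12.9 to 14.2%). With these genes split by length into 5 equal groups, the share was 10.3% in the shortest (9.06 to 11.7%, up to 8.12 kb), 13.7, 13.3 and 13.9% in the next 3, and 16.5% in the longest (14.9 to 18.1%, from 77.6 kb). Among genes of at least 10 kb, 11.1% of those with a wide region had peaks at both ends (9.34 to 13.1%), against 8.35% of those with narrower peaks only (7.70 to 9.04%). A wide region was the only peak counted for its gene in 925 of the 1394 genes (66.4%, 63.8 to 68.8%). Of genes with narrower peaks only, 68.3% had a single counted peak (67.3 to 69.2%). Peaks at ends of 2 or more protein-coding genes were not counted, here or in the shares with peaks at both ends. A gene counted as wide if any of its peaks was wide, so a gene with more peaks had more chances. The shares with peaks at both ends and with a single peak therefore partly restate this grouping. By chromosome the share of peaks at single gene ends that were wide ran from 7.17% on chromosome 15 to 12.8% on chromosome 3.

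Exactly 2 wide regions were found at 15 genes. At 10 of them both lay at the same end, as at Sh3rf1 (492 and 461 bp wide, centres 693.5 bp apart), Cdc42ep3 (437 and 501 bp), Kmt2c (481 and 413 bp), Zfp407 (431 and 412 bp), Kcnk12 (471 and 366 bp), Gdi2 (428 and 366 bp), Paxip1 (389 and 399 bp) and Arid1a (342 and 439 bp). Kmt2c encodes a histone H3 lysine 4 methyltransferase, Paxip1 a partner of it, and Arid1a a subunit of the BAF remodeller. At Rela, the NF-kappaB subunit gene, a region of 525 bp lay at the start and one of 400 bp at the far end, 11457.5 bp apart. Gm2a had 388 bp at its start and 426 bp at its far end.

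Promoter windows under wide and narrow peaks were alike in base composition. A RefSeq window (250 bases before to 50 after a listed start of the same gene) overlapped 888 members and 5456 narrower peaks. The median GC content was 62.7% for members (quartiles 56.0 and 69.7%), 62.0% for narrower peaks and 57.0% over all 20085 windows of protein-coding genes. The median ratio of observed to expected CpG was 0.796 for members, 0.775 for narrower peaks and 0.586 over all windows. Windows with at least 55% GC and a ratio of at least 0.65 made up 63.6% of members' windows (60.4 to 66.8%), 62.2% of narrower peaks' (60.8 to 63.4%) and 39.2% of all windows. Members of 500 bp or more had 65.3% GC and 68.4% of windows above both limits (60.4 to 75.6%). Measured from the nearest listed start, the centre had a median of 72.75 bp for members and -46.5 bp for narrower peaks.

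Among 15 motifs searched on both strands, a CCAAT box, the site of NF-Y, was the motif whose intervals lay apart with a lower share under wide peaks. It was found in 34.0% of members' windows (30.9 to 37.2%), 41.9% of narrower peaks' (40.6 to 43.3%) and 38.1% of all windows. The YY1 motif AAGATGGC was found in 5.97% of members' windows (4.50 to 7.73%) and 3.96% of narrower peaks' (3.46 to 4.51%), where the intervals just overlap, and in 3.06% of all windows. The GC box GGGCGG, bound by SP and KLF factors, stood at 71.6 and 71.4%, against 47.0% of all windows, and the ETS motif CCGGAAG at 17.1 and 17.2%, against 11.9%. The TATA box TATAAA stood at 6.19 and 6.09%, against 12.7% of all windows. The NRF1 motif GCGCATGCG (3.83 and 3.92%), the E-box CACGTG (9.91 and 11%), the cAMP response element TGACGTCA (3.94 and 3.59%), the ZBTB33 motif CTCGCGAGA (1.58 and 1.26%) and the KLF motif GGGTGTGG (3.83 and 4.29%) had overlapping intervals. So did the octamer ATGCAAAT (1.91 and 1.58%), the ESRRB motif TCAAGGTCA (0.450 and 0.165%), the STAT motif TTCCNGGAA (0.563 and 1.17%), the CTCF core (0.901 and 0.971%) and the REST half-site TTCAGCACC (0.450 and 0.440%). Of all windows, 2.37% held the NRF1 motif, 7.89% the E-box, 2.30% the cAMP response element, 0.926% the ZBTB33 motif, 3.65% the KLF motif, 1.67% the octamer, 0.339% the ESRRB motif, 1.21% the STAT motif, 0.578% the CTCF core and 0.413% the REST half-site. Overlapping matches of different motifs were not separated, and a match is a description of letters and not of binding.

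The gene lists describe which functions the 1394 genes cover, set against 13.5% of all genes with a peak at a single gene end. The intervals of the naive, formative and R-loop lists all include that share. Of 24 naive pluripotency genes with a peak at a single gene end, 1 had a wide region (4.17%, 0.105 to 21.1%), Klf4, with 409 bp centred 68 bp inside its start. Peaks at Pou5f1 (137 bp), Sox2 (114 bp) and Nanog (123 bp) were narrow, and the widest at Prdm14 and Tbx3 were 243 and 236 bp. None of 9 formative genes had one (upper bound 33.6%), the peak at the methyltransferase gene Dnmt3b being 155 bp wide. Of 19 R-loop genes, 1 had a wide region (5.26%, 0.133 to 26%), the helicase gene Ddx21, with 406 bp centred 117.5 bp inside its start. The widest peak at Rnaseh1, the gene of the knock-in, was 219 bp.

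The lists of chromatin genes differed in their shares. Of 25 remodeller and trithorax genes with a peak, 8 had a wide region (32.0%, 14.9 to 53.5%), the only list whose interval lay wholly above 13.5% besides the zinc finger genes. Among them were Smarcd1 and Arid1a of the BAF complex, the remodeller gene Chd1, the methyltransferase gene Kmt2c, the deacetylase gene Hdac2 and the acetyltransferase genes Ep300 and Crebbp. Their widths were 432 bp at Smarcd1, 340 bp at Chd1, 433 bp at Hdac2, 432 bp at Ep300 and 343 bp at Crebbp, while Smarca4, the BAF ATPase gene, had 153 bp. Centres of the 8 wide regions of this list at starts ranged from -855 to 906 bp, with 2 at 50 to 250 bp inside. Of 19 genes of H2A.Z and its remodellers, 4 had one (21.1%, 6.05 to 45.6%). These were Vps72, the H2A.Z chaperone of the SRCAP and EP400 complexes, with 435 bp, Trrap with 859 bp, Meaf6 with 785 bp and Yeats4 with 452 bp, and H2az1 itself had 117 bp. Of 21 polycomb genes 3 had one (14.3%, 3.05 to 36.3%), the methyltransferase gene Ezh2 (392 bp), the ubiquitin ligase gene Rnf2 (339 bp) and Pcgf1 (431 bp), against 144 bp at Ezh1. Rest (1037 bp) and Hdac2 were the 2 of 10 genes of REST and its corepressors (20%, 2.52 to 55.6%), and Rcor1 had 142 bp. Of 14 DNA methylation and silencing genes, 1 had one, Daxx (406 bp). The CTCF and cohesin list also held condensin genes. Of its 10 genes with a peak, 1 had a wide region, the condensin gene Ncaph (413 bp). Uhrf1 had 162 bp and Ctcf 209 bp.

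Zinc finger genes made the largest group by number. Of 321 zinc finger genes with a peak at a single gene end, taken by symbol, 57 had a wide region (17.8%, 13.7 to 22.4%), and the widest were at Zbtb6 (643 bp), Zfp811 (559 bp) and Zfpm2 (540 bp). Among their 44 wide regions at starts, 30 had the centre 50 to 250 bp inside, with a median of 109.5 bp. Many zinc finger genes have near-identical relatives, so reads and therefore peaks at them can be uncertain. With a minimum of 400 bp in place of 300 bp the share was 13.4% for these genes (9.87 to 17.6%). It was then 9.85% for all genes with a peak at a single gene end (9.28 to 10.4%). The intervals of zinc finger genes and of all such genes overlap at 400 bp. They also overlap at 300 bp, where that of all such genes was 12.9 to 14.2%. Zfp771, with 240 bp, had the widest peak among those without a wide region.

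In the signalling lists, 5 of 22 TGF-beta and BMP genes had a wide region (22.7%, 7.82 to 45.4%), at the signal transducers Smad4 (439 bp) and Smad5 (746 bp), the inhibitors Smad6 (425 bp, at its far end) and Smad7 (443 bp), and the receptor gene Acvr2b (406 bp). Nodal had 150 bp. Of 21 WNT genes 4 had one (19%, 5.45 to 41.9%), Ctnnb1, which encodes beta-catenin (457 bp), the kinase gene Gsk3a (469 bp), the repressor gene Tcf7l1 (433 bp) and the receptor gene Fzd5 (331 bp), and Apc had 179 bp. Of 23 FGF and ERK genes 3 had one (13%, 2.78 to 33.6%), the kinase gene Map2k2 (442 bp) and the feedback inhibitors Dusp4 (404 bp) and Spry2 (452 bp), while the ligand gene Fgf4 had 228 bp.

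Among growth genes, 4 of 17 replication and repair genes had a wide region (23.5%, 6.81 to 49.9%), among them Mcm6 (461 bp), Chek1 (387 bp) and Fancg (383 bp). Mcm2 had 116 bp. The cell cycle list had 2 of 21 (9.52%, 1.17 to 30.4%), Cdk4 (364 bp) and Cdkn2c (383 bp), with 119 bp at Ccnb1. The Myc list had 2 of 9 (22.2%, 2.81 to 60.0%), Myc (357 bp) and Mga (467 bp), with 182 bp at Mycl. Of 24 genes of the transcription machinery 2 had one (8.33%, 1.03 to 27%), Med13l (313 bp) and Cdk9 (704 bp), and Polr2a had 131 bp. Of 21 splicing genes 1 had one (4.76%, 0.120 to 23.8%), Luc7l (387 bp), and Srsf2 had 105 bp. Mitochondrial ribosomal protein genes had 7 of 39 (17.9%, 7.54 to 33.5%), the widest at Mrps28 (459 bp), Mrpl58 (444 bp) and Mrpl33 (393 bp), and Mrps33 had 228 bp. The symbol pattern for cytosolic ribosomal protein genes gave 7 of 65 (10.8%, 4.44 to 20.9%), among them Rps6ka1 (514 bp), Rps19 (506 bp) and Rpl10l (447 bp). It also took in genes that are not ribosomal, such as the kinase genes Rps6ka1 and Rps6kl1. With narrower peaks only, Rps6ka4, Rps6ka5 and Rps19bp1 were among these too, so the share is not one of ribosomal protein genes alone.

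**Figure D5:**
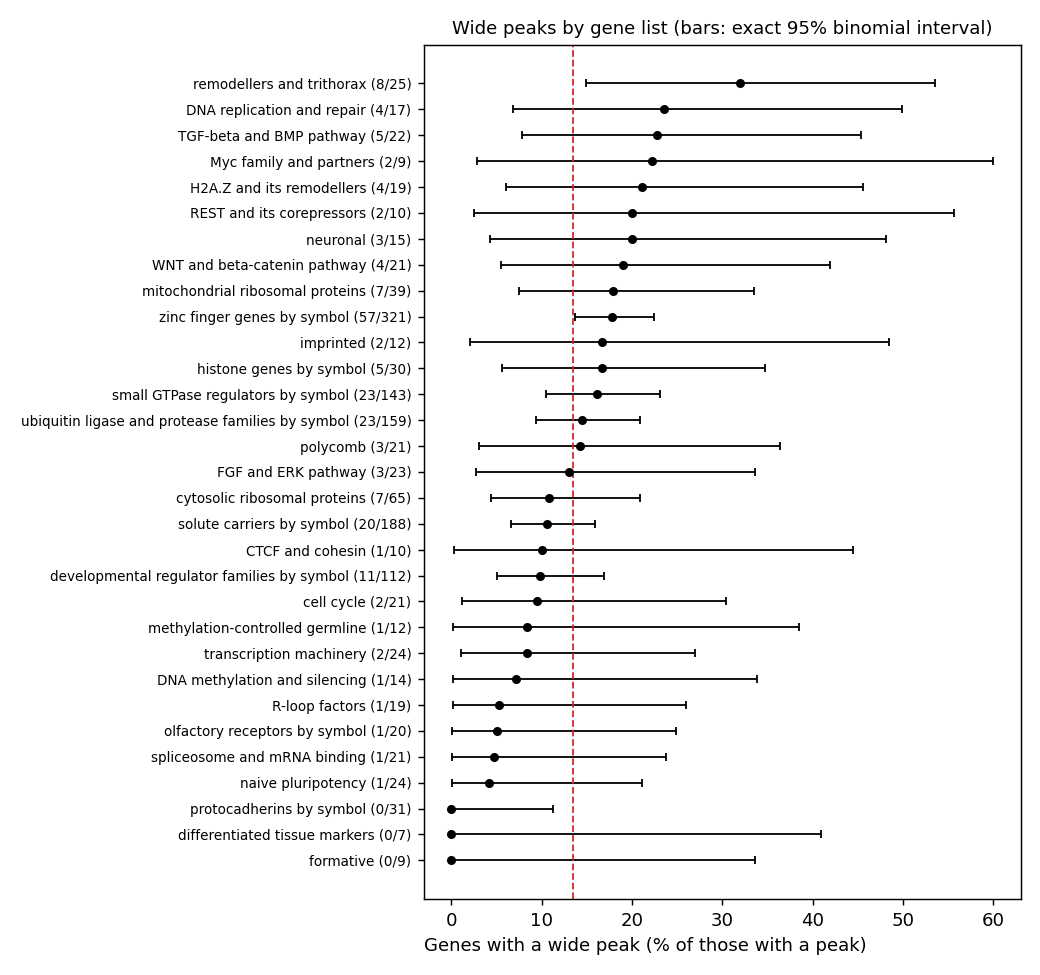
Share of genes with a wide region among list genes with a peak at a single gene end, for 31 lists, with exact 95% binomial intervals and, dashed, the 13.5% of all such genes. Most intervals span the dashed line; those of remodellers and trithorax (8 of 25) and zinc finger genes (57 of 321) lie above it and that of protocadherins (0 of 31) below it.

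The remaining lists covered lineage and large families. Neuronal genes had 3 of 15 (20%, 4.33 to 48.1%), Chga (349 bp), Stmn3 (409 bp) and Celsr3 (547 bp), with 120 bp at Snap25. Developmental regulator families had 11 of 112 (9.82%, 5.01 to 16.9%), the widest at Foxo1 (701 bp), Sox1 (513 bp) and Otx1 (431 bp), and Pax2 had 238 bp. Imprinted genes had 2 of 12, Igf2r (505 bp, centred 96 bp inside its start) and Zdbf2 (418 bp), with 96 bp at Peg3. Germline genes had 1 of 12, Rpl10l, with 124 bp at Dazl, and the 7 differentiated tissue genes had none (upper bound 41.0%), Apoa1 having 130 bp. Histone genes had 5 of 30 (16.7%, 5.64 to 34.7%), H4f16 (442 bp), H4c3 (427 bp), H2bc3 (381 bp), H4c9 (360 bp) and H3f3a (350 bp), with 220 bp at H1f3. Many histone genes are short and nearly identical, so their peaks and nearer ends are uncertain. Small GTPase regulators had 23 of 143 (16.1%, 10.5 to 23.1%), the widest at Dennd5b (1221 bp), Rabgap1l (784 bp) and Rab39 (711 bp), and Rabep1 had 239 bp. Ubiquitin families had 23 of 159 (14.5%, 9.40 to 20.9%), with Rnf139 (735 bp), Usp53 (716 bp) and Rnf130 (611 bp). Solute carriers had 20 of 188 (10.6%, 6.62 to 16%), with Slc38a1 (780 bp), Slc30a2 (626 bp) and Slc35a3 (559 bp), while Slc2a3 had 266 bp. Of 31 protocadherin genes none had one (upper bound 11.2%), Pcdhgc4 having 194 bp, and of 20 olfactory receptor genes 1 had one, Olfr95 (392 bp), with 163 bp at Olfr94. With 31 lists looked at, 1 or more intervals can miss 13.5% by counting error alone, and no list was tested.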

How the data were processed

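ATAC-seq peaks came from 8 samples (4 control, 4 Dox). Per the submitters' processing notes the build was GRCm38 and the tools were HOMER 4.11, deepTools 3.5.1, SAMtools 1.16.1, Bowtie2 2.5.0, Trimmomatic 0.39 and Picard 2.10.9, with no roles stated. The threshold and joining distance of the peak calls and any pooling of samples are not stated. The deposited list has 3 columns and no scores or values per sample, so the planned Dox comparison was not run and depth is unknown.

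Peak centres were compared with outer ends of 20665 protein-coding genes of RefSeq GRCm38.p6, and the nearer end was used. Strand came from the RefSeq promoter table, which covers 16457 of them. Motifs were matched exactly on both strands of the 300-base windows. The members, the 31 gene lists and the motifs were chosen with earlier results of these data known. Named are the widest members, those nearest the threshold, genes with 2 wide regions (up to 10), extremes of position and surroundings, and of each list the first 3 with a wide region (the widest 3 for lists by symbol) and the first without; others were named after their values were seen, and a few genes are not reported here. The assignment was tested on simulated peaks centred at or just inside the start of genes of at least 10 kb. There 2525 of 2525 peaks at single gene ends received the right gene and were called at the start. That outcome follows from the placement if the code is correct, so the simulation checked the code only. Its strands came from the same promoter table, so errors of that table could not show. Far ends and shorter genes were not simulated. The software was pandas 2.3.3, SciPy 1.17.1, NumPy 2.4.6 and matplotlib 3.10.9 under Python 3.11.15.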

Additional observations from a re-analysis of the deposited data

Results flagged for a closer look

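Chromosome X was left out of the comparison by the rule that chose the members, and the list held 28 wide peaks at ends of exactly 1 protein-coding gene there, which are given here for that reason alone. They made up 6.81% of 411 peaks at single gene ends on X (exact 95% binomial interval 4.57 to 9.70%), against 10.0% on chromosomes 1 to 19. Among the widest were those at Sh3kbp1 (846 bp) and Htatsf1 (746 bp).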

How the results depend on the processing

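Over 94 values recomputed under alternatives, 83 stayed within the interval of the reported value, or within 1.5 times it for counts, and 11 moved. The 94 include values with each chromosome left out in turn, where a count of genes could not change by 1.5 times. The share of peaks at single gene ends that were wide was 10.6% with a minimum of 250 bp and 7.23% with 400 bp, as the rule itself dictates, and 10.8% with a window of 500 bp and 9.17% with 2 kb. The share of centres 50 to 250 bp inside the start was 50.6% with the 500 bp window and 38.6% with 2 kb, and the share at the start was 98.1 and 92.1%, since the window sets which distant peaks enter. The share of zinc finger genes with a wide region was 13.4% with a minimum of 400 bp, where that of all genes with a peak at a single gene end fell from 13.5 to 9.85%, since fewer peaks reach the minimum. The median number of other peaks was 2 within 20 kb and 11 within 100 kb. Leaving out each chromosome in turn gave 1281 to 1357 genes with a median length of 28.1 to 30.1 kb. No paired analysis was possible because the list holds no values per sample, and the planned Dox comparison with its replicate block was not run for the same reason. Depth per sample is unknown, so a narrow or missing peak does not show a shorter open stretch.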
